A study of Mus musculus with 12 samples.

Results

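Lung CD4+ T cells of mice carried 7 transcripts that were lower in infected juveniles and not, or only weakly, in infected neonates: Nkd2, Tspan9, Slc10a1, Amigo2, Gabrr2, Hcst and Slc16a5. They were chosen by their measured responses, as genes with lower counts after E. coli in juveniles and with no fall, or a weak one, in neonates. They are 7 of 19434 counted genes, and all 7 passed the filter on low counts that left 11062 genes for testing. Because the juvenile and neonatal responses chose them, their fold changes are given as descriptions, with no test.

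The study measured RNA in CD4+ T cells from lungs of male and female mice of the strain C57BL/6NJ, in 12 libraries. Neonates were given Escherichia coli (2800000 colony-forming units) or phosphate-buffered saline (PBS) into the airway on day 5 of life, and juveniles were given either on day 15. Lungs were taken 48 h later, and cells were enriched with magnetic beads and sorted. Each age was thus studied after PBS and after E. coli, which made 4 groups of 3 libraries, and a library held the pooled cells of 3 neonates or of 2 juveniles. No genotype other than the strain and no further treatment is given. Age and exposure define the groups, and pool size follows age, so age and pool size cannot be told apart. A pool averages its mice, and a p-value here measures the spread between pools.

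The 7 genes come from different families. Hcst encodes DAP10, a short adaptor that pairs with receptors such as NKG2D and passes their signal to phosphoinositide 3-kinase. Gabrr2 encodes a rho subunit of the ionotropic GABA receptor, a chloride channel best known from the retina, and Amigo2 a leucine-rich repeat adhesion protein first studied in neurons. Tspan9 is a tetraspanin, a family that organises membrane receptors into clusters. Slc10a1 encodes the sodium-coupled bile acid carrier of hepatocytes, and Slc16a5 belongs to the monocarboxylate carriers. Nkd2 encodes a Dishevelled-binding antagonist of Wnt signalling, the pathway whose nuclear partners Tcf7 and Lef1 are typical of naive T cells.

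Libraries held 6035445 to 8129983 counts. Levels are given as CPM, counts scaled to a fixed total over the tested genes of a library with its TMM factor. The T cell gene Cd3e had group means of 1584 to 1875 CPM. A floor of 3 counts equalled 0.374 to 0.494 CPM, and the lowest member count was 27, for Nkd2 in juvenile E. coli library 2. Juvenile PBS library 2 stood apart from its group: its log2 CPM correlated with the other juvenile PBS libraries at r = 0.975 and 0.969 over genes, and it held 169.9 CPM of the recombinase gene Rag1, an immature T cell marker, against 13.7 and 29.5 in the others. Rag1 varied in other groups too. It had 103.6, 144.9 and 101.8 CPM in juvenile E. coli libraries 1 to 3, and 344.1 CPM in neonatal PBS library 1.

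Upstream sequences of 4 of the genes are shown because all 7 genes were lower in juveniles after E. coli and these starts have no annotated exon in the window. Each line gives the 250 bases before the first RefSeq start (GRCm38.p6), on the gene's own strand, which is the minus strand for all 4. In Nkd2 (chr13:73847632-73847881) and Amigo2 (chr15:97247288-97247537) capitals mark CACCC, the core bound by KLF factors, or its reverse complement GGGTG. In Hcst (chr7:30419855-30420104) they mark CACCC and TGTTCT, the reverse complement of the glucocorticoid receptor core AGAACA. In Slc10a1 (chr12:80968706-80968955) they mark ACCAAAG, a reverse complement of CTTTGNT. That is a loosened form, with any base at N, of the core bound by TCF and LEF factors.
Nkd2: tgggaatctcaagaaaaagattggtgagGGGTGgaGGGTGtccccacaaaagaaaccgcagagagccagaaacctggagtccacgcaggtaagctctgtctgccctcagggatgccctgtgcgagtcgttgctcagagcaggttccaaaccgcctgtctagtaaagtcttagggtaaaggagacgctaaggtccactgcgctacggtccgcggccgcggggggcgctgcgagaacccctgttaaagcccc
Amigo2: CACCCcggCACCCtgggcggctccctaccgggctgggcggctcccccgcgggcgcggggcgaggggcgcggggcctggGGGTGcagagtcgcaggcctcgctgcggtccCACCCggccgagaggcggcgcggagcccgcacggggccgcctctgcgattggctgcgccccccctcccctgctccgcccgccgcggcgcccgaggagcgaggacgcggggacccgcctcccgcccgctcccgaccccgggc
Hcst: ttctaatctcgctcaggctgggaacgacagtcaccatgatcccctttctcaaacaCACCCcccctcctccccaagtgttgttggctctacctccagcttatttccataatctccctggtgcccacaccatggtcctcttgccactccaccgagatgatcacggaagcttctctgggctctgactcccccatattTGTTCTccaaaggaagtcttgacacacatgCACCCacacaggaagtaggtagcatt
Slc10a1: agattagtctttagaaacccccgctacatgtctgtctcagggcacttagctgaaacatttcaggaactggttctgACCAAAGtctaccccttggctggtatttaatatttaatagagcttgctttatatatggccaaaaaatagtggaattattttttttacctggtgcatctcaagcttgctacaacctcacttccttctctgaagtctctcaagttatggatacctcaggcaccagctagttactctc

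RefSeq gave starts for 6 of the 7 genes, among 32817 promoters. CACCC was found on either strand in 4 of the 6 first promoters (Nkd2, Tspan9, Amigo2 and Hcst), and in 52.0% of all promoters. CTTTGNT was in 2 of the 6 (Tspan9 and Slc10a1) and in 15.99% of all. AGAACA was in 2 of the 6 (Gabrr2 and Hcst) and in 16.1% of all. On either strand, the forkhead motif GTAAACA (3.16% of all), the ETS motif CCGGAAGT (2.88%), an NF-kB motif (1.41%) and an interferon regulatory factor motif (2.97%) were in 0 of the 6. A match here is a run of letters and not a binding site, and none of these motifs was in all 6 windows. The printed windows also differed in base composition, with 84.0% G and C in Amigo2, 58.4% in Nkd2, 52.4% in Hcst and 40.8% in Slc10a1, against a median of 52.4% over all promoters.

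Juvenile mice had the lowest mean of the 4 groups after E. coli for all 7 genes, and the highest after PBS for all but Gabrr2. In bulk RNA, fewer cells carrying a transcript and less transcript per cell cannot be told apart.

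**Figure D1:**
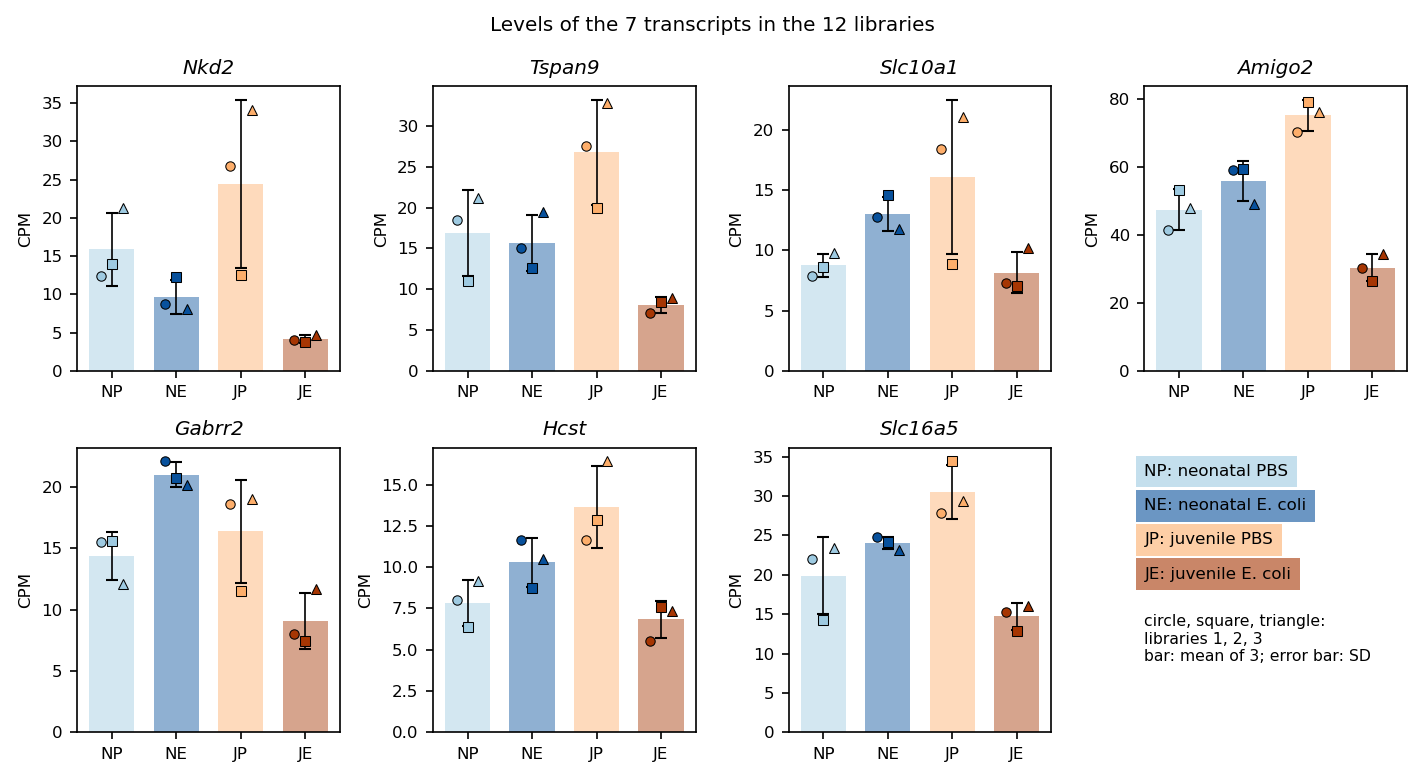
CPM of each gene (vertical axis, from 0, a separate scale per gene) in the 3 libraries of each group, with bars for the mean and error bars for the SD of 3 libraries. Juvenile E. coli is the lowest group in all 7 panels, and juvenile PBS library 2 (square) lies far under its group for Nkd2 and Slc10a1.

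Hcst (chromosome 7, 30417712 to 30419854, minus strand, GRCm38), the receptor adaptor, had 11.7, 12.9 and 16.4 CPM in juvenile PBS libraries 1 to 3, and 5.53, 7.60 and 7.37 CPM in juvenile E. coli libraries. Neonatal libraries had 8.03, 6.39 and 9.15 CPM after PBS and 11.6, 8.73 and 10.5 CPM after E. coli. Every juvenile E. coli library lay under every juvenile PBS library, whereas the neonatal groups overlapped. The log2 fold change (E. coli over PBS, ± SE) was -0.997 ± 0.21 in juveniles and 0.39 ± 0.21 in neonates. From the lowest mean to the highest, the order was juvenile E. coli, neonatal PBS, neonatal E. coli and juvenile PBS. Only the last pair of neighbours in that order did not overlap.

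Gabrr2 (chromosome 4, 33062999 to 33095865, plus strand), the channel subunit, had 18.6, 11.5 and 19.0 CPM in juveniles after PBS and 8.05, 7.46 and 11.7 CPM after E. coli. These groups overlapped, through juvenile PBS library 2 and juvenile E. coli library 3. In neonates it had 15.5, 15.6 and 12.1 CPM after PBS, and 22.1, 20.7 and 20.2 CPM after E. coli. All neonatal E. coli libraries were above all neonatal PBS libraries, which made Gabrr2 the gene of the 7 whose highest group was neonatal E. coli. The juvenile fold change was -0.85 ± 0.21 on the log2 scale and the neonatal one 0.54 ± 0.20. In order of means, juvenile E. coli was followed without overlap by neonatal PBS, neonatal PBS overlapped juvenile PBS through juvenile PBS library 2, and neonatal E. coli lay above both.

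Amigo2 (chromosome 15, 97244125 to 97247287, minus strand), the adhesion protein, had the most counts of the 7 in every group. Juvenile PBS libraries held 70.2, 79.3 and 76.2 CPM and juvenile E. coli libraries 30.3, 26.4 and 34.3 CPM. In neonates the values were 41.3, 53.2 and 47.9 CPM after PBS and 59.1, 59.5 and 49.2 CPM after E. coli. The juvenile groups were far apart, with means of 75.2 ± 4.63 and 30.3 ± 3.97 CPM (SD, n = 3), and both neonatal groups lay between them and overlapped each other. The log2 fold change was -1.31 ± 0.13 in juveniles and 0.24 ± 0.13 in neonates, with the smallest SE of the 7 genes.

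Tspan9 (chromosome 6, 127961396 to 128143594, minus strand), the tetraspanin, had 27.5, 19.9 and 32.8 CPM in juveniles after PBS and 7.04, 8.42 and 8.90 CPM after E. coli. Neonates had 18.4, 10.97 and 21.2 CPM after PBS and 15.1, 12.6 and 19.4 CPM after E. coli. Juvenile E. coli libraries were under those of all other groups, and the other 3 groups overlapped in order of their means; without juvenile PBS library 2, juvenile PBS lay above neonatal PBS. The juvenile mean after E. coli was 30.3% of that after PBS, a log2 fold change of -1.72 ± 0.25. In neonates the log2 fold change was -0.10 ± 0.24, and it ran from -0.34 without neonatal PBS library 2 to 0.10 without neonatal PBS library 3, so its sign rests on single libraries.

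Slc10a1 (chromosome 12, 80953183 to 80968705, minus strand), the bile acid carrier, had 18.4, 8.90 and 21.04 CPM in juvenile PBS libraries and 7.29, 7.04 and 10.2 CPM after E. coli. Juvenile PBS library 2 lay within the juvenile E. coli range, so these groups overlapped. Neonatal values were 7.88, 8.61 and 9.80 CPM after PBS and 12.8, 14.6 and 11.8 CPM after E. coli, and all E. coli libraries were above all PBS libraries. Its log2 fold change was -0.98 ± 0.26 in juveniles, -1.27 without juvenile PBS library 2, and 0.58 ± 0.26 in neonates, the highest neonatal value of the 7. Juvenile E. coli and neonatal PBS overlapped at the low end of the order and neonatal E. coli and juvenile PBS at the high end. Without juvenile PBS library 2, juvenile PBS lay above the other 3 groups.

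Slc16a5 (chromosome 11, 115462474 to 115474398, plus strand), the carrier of the monocarboxylate family, had 27.8, 34.4 and 29.3 CPM in juveniles after PBS and 15.3, 12.8 and 16.01 CPM after E. coli. Here juvenile PBS library 2 was the highest of its group, and the juvenile groups did not overlap. Neonates had 22.01, 14.3 and 23.4 CPM after PBS and 24.8, 24.2 and 23.2 CPM after E. coli, with overlap. The log2 fold change was -1.05 ± 0.17 in juveniles and 0.28 ± 0.17 in neonates. In order of means, juvenile E. coli overlapped neonatal PBS, neonatal PBS overlapped neonatal E. coli, and juvenile PBS lay above all of them.

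Nkd2 (chromosome 13, 73818534 to 73847631, minus strand), the Wnt antagonist, had the deepest juvenile difference of the 7, with 26.8, 12.5 and 34.1 CPM after PBS and 4.02, 3.73 and 4.70 CPM after E. coli. Neonates had 12.3, 14.03 and 21.2 CPM after PBS and 8.68, 12.2 and 8.06 CPM after E. coli. At both ages every E. coli library was below every PBS library, and Nkd2 was the gene of the 7 for which this held in neonates. The juvenile mean after E. coli was 16.96% of that after PBS, a log2 fold change of -2.56 ± 0.33, against 60.8% and -0.71 ± 0.31 in neonates. Juvenile PBS library 2 was again the lowest of its group, and without it the juvenile value was -2.87. The means ran from juvenile E. coli through neonatal E. coli and neonatal PBS to juvenile PBS, and only the last pair overlapped, through juvenile PBS library 2.

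Per kilobase of annotated exon, which is the scale on which genes can be compared, Amigo2 and Hcst were the most abundant in juveniles after PBS, at 23.8 and 18.9 CPM per kb. Slc16a5, Gabrr2 and Slc10a1 stood at 8.25, 7.77 and 7.33 CPM per kb, and Tspan9 and Nkd2 at 5.38 and 5.07. After E. coli, Amigo2 and Hcst were level at 9.59 and 9.46 CPM per kb, while Tspan9 and Nkd2 were at 1.63 and 0.860. Hcst, whose annotated exons are the shortest of the 7, thus ranked just after Amigo2 per length, although its mean CPM in juvenile PBS libraries was the lowest of the 7.

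Across the juvenile comparison the 7 log2 fold changes had a median of -1.05, against -0.01 over all 11062 tested genes. Their ranks from the lowest value in the whole table were 7 for Nkd2, 30 for Tspan9, 88 for Amigo2, 195 for Slc16a5, 218 for Hcst, 225 for Slc10a1 and 325 for Gabrr2. By edgeR's quasi-likelihood test 9.42% of tested genes were called lower in juveniles (adjusted p under 0.05) and 15.4% higher. The 7 were chosen for a fall in this comparison, so no call is given for them. Libraries of the juvenile groups did not overlap for 5 of the 7, all but Slc10a1 and Gabrr2, and for 7 of 7 without juvenile PBS library 2. Of all tested genes 16.3% had all juvenile E. coli libraries below all juvenile PBS libraries, and 26.2% without that library.

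In neonates the median of the 7 was 0.28, with 5 values above 0 and Nkd2 and Tspan9 below it, beside a median of -0.0027 over all tested genes. Of all tested genes 0.145% were called lower in neonates and 1.05% higher. All neonatal E. coli libraries lay below all PBS libraries for Nkd2, a pattern of 10.6% of genes, and above them for Slc10a1 and Gabrr2, a pattern of 11.2% of genes. The juvenile minus the neonatal response ran from -1.33 in Slc16a5 to -1.85 in Nkd2 on the log2 scale, and from -1.23 to -2.16 in the same genes without juvenile PBS library 2. Of all tested genes 1.94% were called lower in that difference and 5.05% higher. The 7 genes were chosen for this difference, and no test of it is given for them. The counts behind that background move with single libraries: 215 genes were called lower in the difference, and 547 without juvenile PBS library 2. Called lower in juveniles, not called in neonates and called lower in the difference were 193 genes (1.74%), and 134 of these 193 had a neonatal value above 0. The 7 were chosen for a pattern of this kind, and no call is given for them. The pattern was not particular to the 7.

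**Figure D2:**
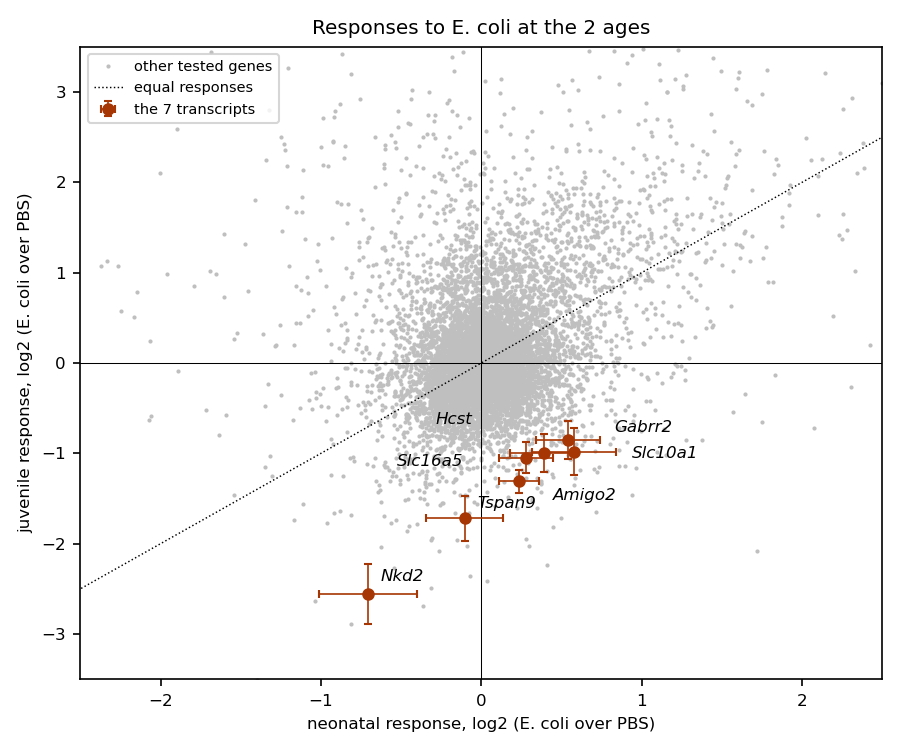
Log2 fold change in neonates (horizontal axis) and in juveniles (vertical axis) for all tested genes, with the 7 genes in red and error bars of 1 SE. All 7 lie under the line of equal responses, 5 of them right of 0 in neonates; 81 tested genes lie outside the plotted range.

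The ages also differed within each exposure, in comparisons that share their libraries with the responses above and add no independent evidence. After PBS, neonates minus juveniles had a median of -0.66 over the 7 genes, from -0.88 in Slc10a1 to -0.19 in Gabrr2. Without juvenile PBS library 2 these were -1.17 and -0.38. Neonatal PBS libraries were all below juvenile PBS libraries for Amigo2, Hcst and Slc16a5, a pattern of 10.2% of tested genes. After E. coli the sign was opposite, with a median of 0.88, from 0.59 in Hcst to 1.22 in Nkd2. Neonatal E. coli libraries were all above juvenile E. coli libraries for 7 of 7, a pattern of 19.4% of tested genes. Juvenile and neonatal PBS libraries thus overlapped for Nkd2, Tspan9, Slc10a1 and Gabrr2, and the Gabrr2 value of -0.19 ± 0.21 was within its SE. Without juvenile PBS library 2 no gene of the 7 overlapped, a pattern of 18.7% of tested genes.

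Within a group, most but not all of the 7 genes shared their highest or lowest library. Library 3 was the highest for 5 of the 7 in neonatal PBS and for 5 in juvenile PBS. In neonatal E. coli, library 3 was the lowest for 5 of the 7. Juvenile PBS library 2 was the lowest of its group for Nkd2, Tspan9, Slc10a1 and Gabrr2 and the highest for Amigo2 and Slc16a5. Without it, the juvenile log2 fold changes were -2.87 for Nkd2, -1.89 for Tspan9, -1.27 for Slc10a1, -1.27 for Amigo2, -1.05 for Gabrr2, -1.04 for Hcst and -0.95 for Slc16a5. No value changed its sign, for which the genes were chosen, and the spread between the 7 genes remained. Among juvenile E. coli libraries, library 3 was the highest for 6 of the 7, all but Hcst. That library also had the highest summed naive T cell markers of its group, 11539 CPM against 8967 and 9335, and the lowest summed effector markers, 5499 CPM against 7472 and 6519. The part of these markers and of library 2 in the results was not tested.

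**Figure D3:**
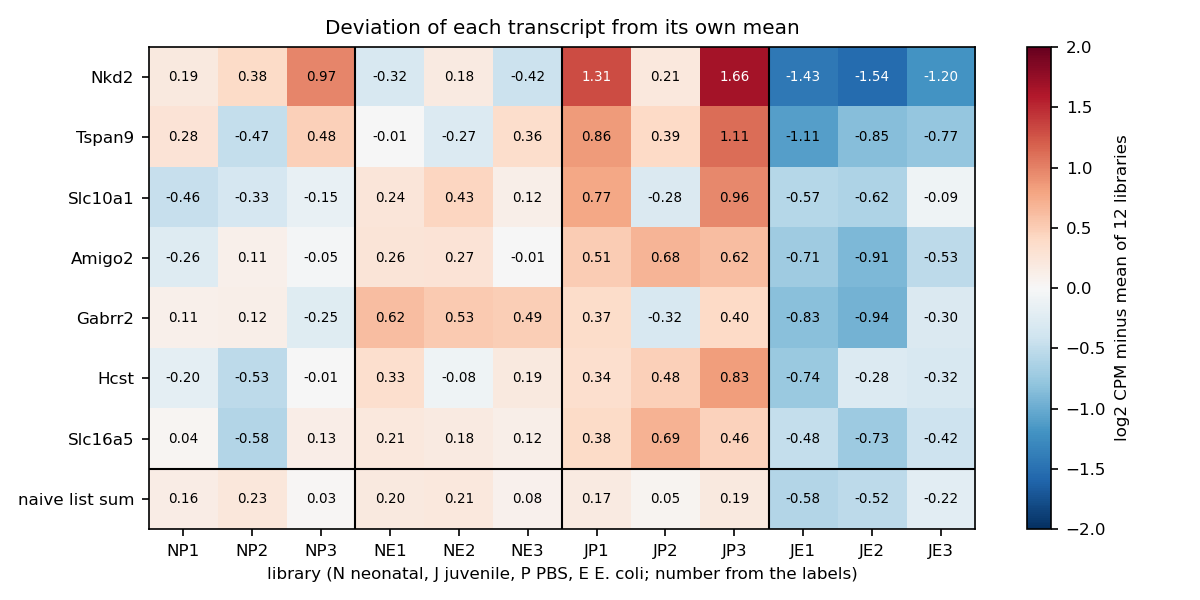
Log2 CPM of each gene minus its mean over the 12 libraries (colour and number), with the summed naive T cell markers in the bottom row. All 7 genes are below their mean in the 3 juvenile E. coli libraries, and Slc10a1 and Gabrr2 are also below it in juvenile PBS library 2.

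Over the 12 libraries the 21 pairs among the 7 genes had Pearson's r of log2 CPM from 0.557 to 0.879, with a median of 0.710. Tspan9 and Nkd2 were the most alike. These values carry the group differences that chose the genes. As deviations from the group means the same pairs ran from -0.511, for Tspan9 and Amigo2, to 0.932, for Nkd2 and Slc10a1, so the genes split within groups. Slc10a1 and Gabrr2 (0.779) and Tspan9 and Hcst (0.741) also deviated together. All these points share the same libraries and depth, and they are given as a description.

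Among the other tested genes, those with the most similar course over the 12 libraries were Pex11c, Slc26a10 and Rffl for Nkd2 (r = 0.963, 0.963 and 0.953). For Tspan9 they were L3mbtl2, Dbp and Slc26a10 (0.965, 0.922 and 0.911), so that Slc26a10 is shared by both. Dbp, a circadian transcription factor, had 9.68 ± 0.67 CPM in juveniles after PBS and 3.39 ± 0.43 after E. coli. Eya2, Rab11fip4 and Pex26 were nearest to Slc10a1 (0.949, 0.943 and 0.942), and Spaca1, Rasal3 and Hif3a to Hcst (0.927, 0.899 and 0.899). Amigo2 was followed by Rpl8, Skp1a and Fam101b (0.962, 0.958 and 0.952), and Slc16a5 by Skp1a, Poldip2 and Mrm1 (0.934, 0.929 and 0.914). Gabrr2 was nearest to Grlf1, Rpl14 and Rps3 (0.955, 0.953 and 0.953). Rpl8, Rpl14 and Rps3 encode ribosomal proteins, and their counts may be shared with near-identical copies. Rpl8 had 368 ± 32.0 CPM in juveniles after PBS and 229 ± 16.6 CPM after E. coli.

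Relatives of the 7 genes were read from 6 lists of the same families and pathways, with the 7 left out. Of 103 tested relatives 12 (11.7%) were called lower in juveniles and 19 (18.4%) higher by edgeR, beside the 9.42% and 15.4% of all tested genes. The median of the 103 was 0.0016, beside -0.01 over all tested genes. In neonates 3 were called higher and 0 lower, with 4 lower at an unadjusted p under 0.05 and 0 by DESeq2 or by limma. The 3 became 0 without neonatal E. coli library 2 or neonatal PBS library 1 or 2, and 1 with replicate number as a block. In the difference of responses 5 were higher and 3 lower. The lower calls became 10 without juvenile PBS library 2 and 9 without juvenile E. coli library 3. The higher calls became 1 without juvenile E. coli library 1, 2 without neonatal E. coli library 1 or neonatal PBS library 3, and 3 without juvenile E. coli library 2 or neonatal PBS library 2. Leaving out single libraries moved the 12 lower calls to between 5 (without juvenile E. coli library 1; 7 without library 2) and 13, and the 19 higher calls to between 10 (without juvenile E. coli library 2) and 20. With upper-quartile scaling 16 relatives were called in each direction in juveniles. Among all genes called in juveniles, the share of higher calls was then 50.9% in place of 62.1%.

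**Figure D4:**
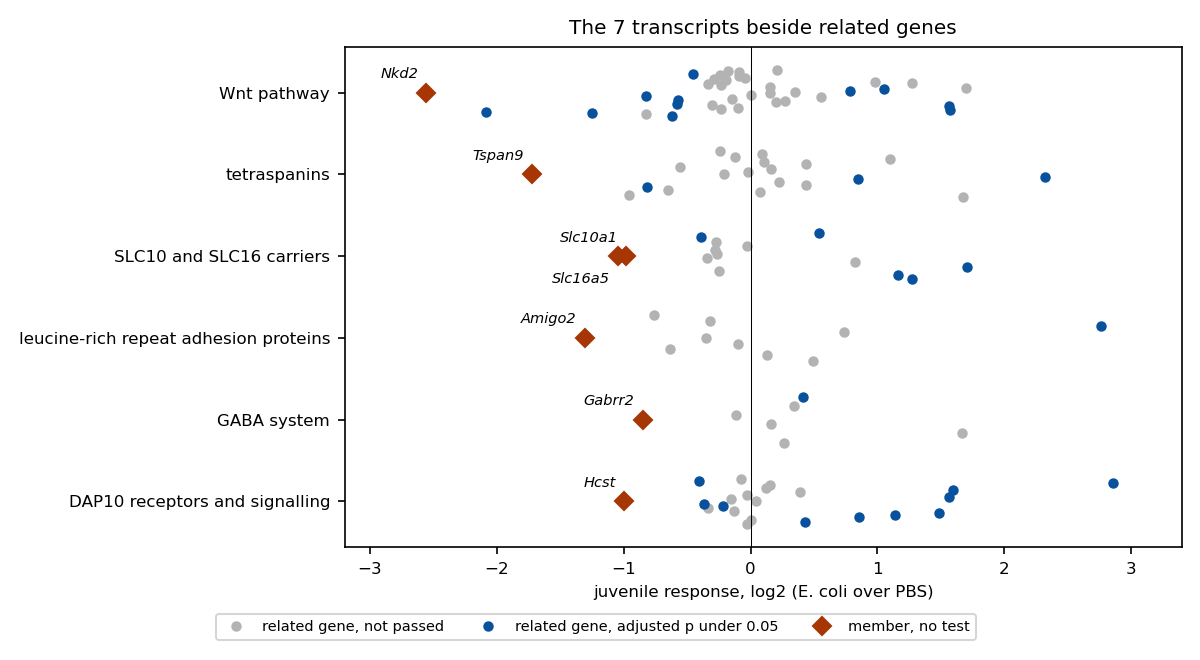
Juvenile log2 fold change (horizontal axis) of the tested genes of the 6 lists, with called relatives in blue, others in grey and the 7 genes as red diamonds. The 7 genes lie left of 0, as their choice requires, and called relatives lie on both sides of 0 in 4 of the 6 lists.

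The Wnt pathway list, around Nkd2, had 36 tested genes, of which 7 were called lower in juveniles and 4 higher. The lower calls were 3 without juvenile E. coli library 1 and 3 with only the juvenile groups fitted. Lef1 and Tcf7, nuclear partners of beta-catenin that are also on the naive T cell list, fell. Lef1 went from 959 ± 90.3 to 541 ± 101 CPM (SD, n = 3), a log2 fold change of -0.83 ± 0.11 (edgeR adjusted p = 0.000118). Tcf7, named after its value was seen, fell by 0.58 ± 0.10 on the log2 scale, and both had responses that differed between the ages (adjusted p = 0.0115 for Lef1 and 0.0105 for Tcf7). The ligand gene Wnt16, also named after its value was seen, fell from 9.04 ± 2.93 to 2.12 ± 0.94 CPM, and was the member of the list with the lowest log2 fold change after Nkd2. Fzd5, a Wnt receptor, rose by 1.05 ± 0.14 (adjusted p = 7.85e-05), from 16.4 ± 0.94 to 34.1 ± 5.90 CPM. Tcf7l2, another TCF factor, rose from 9.65 ± 1.40 to 28.5 ± 5.04 CPM, and Wls, which carries Wnt ligands to the cell surface, from 5.17 ± 1.23 to 15.4 ± 3.56 CPM. The list therefore moved in both directions. In neonates Fzd5 alone was called, with a log2 fold change of 0.64 ± 0.14 (adjusted p = 0.0319). That call was lost without any of the 6 neonatal libraries and with replicate number as a block, at adjusted p of up to 0.149.

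Among 19 tested tetraspanins, the family of Tspan9, 1 was called lower in juveniles (3 without juvenile PBS library 3) and 2 higher (1 without juvenile E. coli library 1 or 2). Tspan32, a tetraspanin of blood cells, fell from 97.0 ± 9.63 to 55.1 ± 8.16 CPM (log2 fold change -0.82 ± 0.12, adjusted p = 0.000122). Tspan2 rose from 14.6 ± 2.76 to 26.1 ± 6.06 CPM (adjusted p = 0.00375), and its juvenile response exceeded the neonatal one by 1.48 ± 0.27 on the log2 scale (adjusted p = 0.00474). Tspan18 was called higher at a low level, 0.70 ± 0.72 to 3.66 ± 1.30 CPM, and the call was lost without juvenile E. coli library 1 or 2 or juvenile PBS library 2 or 3 (adjusted p of up to 0.128). Cd9 did not pass, at -0.56 ± 0.22. By edgeR 0 of the 19 were called in neonates, where 1 in each direction had an unadjusted p under 0.05 and DESeq2 and limma also called 0.

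The carriers of the SLC10 and SLC16 families and their partners had 12 tested genes, with 1 called lower and 4 higher in juveniles. Leaving out 1 library gave 0 to 3 lower, and 2 higher without juvenile E. coli library 2 or 3. In neonates edgeR called 0, with 2 higher at an unadjusted p under 0.05, and DESeq2 and limma called 1 higher each. Slc16a6 rose from 29.7 ± 3.28 to 66.6 ± 3.01 CPM (log2 fold change 1.16 ± 0.14, adjusted p = 2.53e-05). Slc16a3, the lactate exporter MCT4, rose from 3.27 ± 0.22 to 10.7 ± 3.74 CPM (1.71 ± 0.32, adjusted p = 0.00118). These changes were opposite in sign to the values of Slc16a5 and Slc10a1. Slc16a7 was called higher at 1.27 ± 0.40, which was lost without juvenile E. coli library 2 or 3 or juvenile PBS library 1 or 3 (adjusted p of up to 0.127). Emb, embigin, a partner of these carriers, was called lower at -0.39 ± 0.11, which was lost without juvenile E. coli library 1 or 2 or juvenile PBS library 2 (adjusted p of up to 0.0855).

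Leucine-rich repeat adhesion proteins, the family of Amigo2, gave 9 tested genes, with 1 called higher and 0 lower in juveniles by edgeR, 2 lower at an unadjusted p under 0.05, 0 lower by DESeq2 and 2 by limma. The called gene was Flrt3, at 0.31 ± 0.16 CPM after PBS, under the floor, and 2.21 ± 0.39 CPM after E. coli, and its call was lost without juvenile E. coli library 1 or 2 or juvenile PBS library 1 (adjusted p of up to 0.0673). Amigo1, the nearest relative by name, had 5.81 ± 1.91 and 3.44 ± 0.57 CPM and did not pass (-0.76 ± 0.29, adjusted p = 0.0695), although it was called without juvenile PBS library 2. Lrig3 (-0.64 ± 0.29) and Lrig1 (-0.35 ± 0.18) did not pass either.

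Of 32 genes of the GABA system, 15 had 0 counts in all 12 libraries and 6 were tested. Gabrr1, the sister subunit next to Gabrr2 on chromosome 4, was among those at 0. Gabrr2 was thus detected without its sister gene. Gabarap, which has general roles in autophagy, was called higher at 0.41 ± 0.13 (adjusted p = 0.0363), and 10 of 20 alternatives, upper-quartile scaling and the omission of library 1 or 2 of any group among them, lost that call (adjusted p of up to 0.180). Gphn (0.26 ± 0.17), Gabarapl1 (0.34 ± 0.22) and the low Gabrp (1.67 ± 1.27) did not pass.

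Receptors and signalling genes around DAP10, the product of Hcst, gave 21 tested genes, with 7 called higher and 3 lower in juveniles. Without juvenile E. coli library 2 these were 4 and 1, and without juvenile E. coli library 1 or with only the juvenile groups fitted the lower calls were also 1. Fcer1g and Tyrobp, which encode the other small adaptors of this kind, rose. Fcer1g, the Fc receptor gamma chain, went from 19.7 ± 4.37 to 59.5 ± 11.3 CPM (log2 fold change 1.60 ± 0.22, adjusted p = 8.82e-05), and Tyrobp, which encodes DAP12, from 18.8 ± 5.39 to 41.3 ± 6.84 CPM (1.14 ± 0.21, adjusted p = 0.00124). That was opposite in direction to Hcst. The phospholipase gene Plcg2 rose by 1.48 ± 0.22 (adjusted p = 0.000227). Klrk1, which encodes NKG2D, the receptor partner of DAP10, was named after its value was seen; it went from 1.76 ± 1.10 to 5.34 ± 1.29 CPM (1.57 ± 0.43, adjusted p = 0.0152), a call lost without juvenile E. coli library 3 or juvenile PBS library 3 (adjusted p of up to 0.0555). Cd247, the T cell receptor zeta chain, fell by 0.40 ± 0.09 (adjusted p = 0.00573). Fcer1g, Tyrobp and Plcg2 are also expressed by myeloid cells, and Tyrobp and Klrk1 are on the natural killer cell list. Fcer1g and Plcg2 were the members of this list called higher in neonates. The Fcer1g call was lost without neonatal E. coli library 2 or neonatal PBS library 1 or 2 (adjusted p of up to 0.0848). The Plcg2 call was lost without any neonatal library but E. coli library 3, and with replicate number as a block (up to 0.178).

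Neighbouring genes moved in both directions. Tyrobp ends 127 bases from Hcst on the opposite strand and rose, as given above, while Hcst was lower. Nfkbid, 1878 bases from Hcst on its other side, also rose in juveniles (0.95 ± 0.16, adjusted p = 0.000701). Slc12a7, 1780 bases from Nkd2, fell by 0.74 ± 0.11 (adjusted p = 0.00018), and Trip13, on the other side of Nkd2, rose by 1.14 ± 0.22 (adjusted p = 0.00151). Kctd2, the neighbour of Slc16a5 on one side, fell by 0.66 ± 0.19 (adjusted p = 0.0212), and its neonatal value was 0.02 ± 0.19. That call was lost without juvenile E. coli library 1 or 2 or juvenile PBS library 3 (adjusted p of up to 0.0847). Rpap3, next to Amigo2, rose by 0.53 ± 0.15 (adjusted p = 0.0213), which was lost without juvenile E. coli library 2 or 3 or juvenile PBS library 1 or 3 (up to 0.0975). Armc7, 1269 bases from Slc16a5 on its other side, did not pass (-0.20 ± 0.13), and neither did Srsf5 next to Slc10a1 (-0.12 ± 0.15) or Ube2j1 next to Gabrr2 (0.01 ± 0.07). In GENCODE M21, exons of Pced1b overlap Amigo2 by 58 bases and exons of Gm11695 overlap Slc16a5 by 104 bases, both on the opposite strand. Without strand, reads from these stretches cannot be told apart.

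Markers of T cell state and of other cells moved in the same comparison. In juveniles 18 of 20 naive T cell markers fell, and the summed level went from 13908 to 15354 CPM after PBS to 8967 to 11539 CPM after E. coli. The mean of that sum after E. coli was 67.2% of the PBS mean, a log2 value of -0.57. All 20 effector and activation markers rose, from sums of 1982 to 2864 CPM to 5499 to 7472 CPM, and 12 of 14 regulatory T cell markers rose while Gpr83 fell. These counts share genes: Il2ra, and Ctla4 and Tnfrsf18 (named after their values were seen), are on both lists and rose. In neonates 1 of the 20 naive markers and 4 of the 20 effector markers rose, and the rest did not pass. Genes of CD4 T cell identity fell in 7 of 14 cases in juveniles, 12 without juvenile PBS library 2. Of 11 immature T cell genes 3 fell and 1 rose, and 6 rose without that library.

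Among markers of other cells, 12 of 18 tested monocyte and macrophage genes rose in juveniles, with sums of 531 to 848 CPM after PBS and 1127 to 1592 CPM after E. coli. The number that rose was 8 without juvenile PBS library 2 and 6 without juvenile E. coli library 2. Chi3l3, named after its value was seen, fell by 4.06 ± 0.41 on the log2 scale. Of 9 tested natural killer and innate lymphoid genes 4 rose, with sums of 359 to 438 CPM after PBS and 774 to 849 CPM after E. coli and Klra8 at 0 in both. Neutrophil markers, at sums of 0.33 to 4.03 CPM after PBS and 12.7 to 27.5 CPM after E. coli, rose in 4 of 5 tested genes at each age (in neonates 0 without PBS library 1 or 2, and 2 without PBS library 3 or E. coli library 2), and 9 of the 14 listed genes, S100a9, Cxcr2 and Ly6g among them, were at 0 in juvenile PBS libraries. Of 8 tested endothelial genes 5 rose (2 without juvenile E. coli library 1 or juvenile PBS library 3, 3 without juvenile E. coli library 2 or juvenile PBS library 1), and Pecam1, which is also on the naive list, and Sele fell. Sums of the endothelial list were 240.4 to 263 CPM after PBS and 233 to 252 CPM after E. coli. These sums mostly follow Pecam1, which had 227 CPM of a mean sum of 251 after PBS and 187 of 243 after E. coli. Of the remaining lists, 2 of 9 lung epithelial and 1 of 9 B cell genes rose, and the 5 fibroblast and 3 platelet genes tested did not pass. The part of these cells, and of the shift from naive to effector markers, in the values of the 7 genes was not tested.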

How the data were processed

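RNA was measured in 12 libraries of sorted lung CD4+ T cells. Per the submitters' processing notes, the authors used CASAVA 1.8.4 and STAR with GRCm38 (mm10). The deposited values are raw counts per gene symbol, in a table named for SeqMonk, with no normalization. Strand setting, annotation and filters: not given in the sources used here. Strand is not marked by the cDNA kit that the labels name. All 12 sample columns were mapped, and 0 were left over.

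A low-count filter (filterByExpr of edgeR, at least 10 counts and a total of 15) left 11062 of 19434 genes and 99.9% of counts. Quasi-likelihood tests of edgeR 4.0.16, run in R 4.3.3, used the means of the 4 groups with TMM scaling, all libraries and no covariate, with Benjamini-Hochberg adjustment over all tested genes and a threshold of 0.05. The common biological coefficient of variation was 0.123. Log2 fold changes are ± SE and CPM are ± SD of 3 libraries. Correlations used log2 CPM with a prior count of 2. Pairs of libraries within a group differed by more than counting noise, at 3.88 to 19.6 times the chi-square that sampling alone gives. The test was checked on simulated data. As alternatives, DESeq2 1.42.0 and limma 3.58.1 (voom with sample weights, a weight per library) were run, and scaling was by RLE or upper quartile. Filters were none or stricter, fits held just the groups compared, replicate number was a block, and each library was left out.

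The 7 genes and all lists were chosen with earlier results of these data known. The text names the 7, up to 4 genes of smallest p per list of relatives and the 3 genes most correlated with each of the 7. It also names annotated neighbours and markers among the first 3 of each cell type list. Gpr83, Cxcr2, Ly6g, Klra8 and Sele stand later in their lists and were named after their values were seen. The other names chosen in this way are marked where they occur. Positions are from GENCODE M21 and sequences from RefSeq. Python 3.11.15, numpy 2.4.6, pandas 2.3.3 and matplotlib 3.10.9 made the tables and plots. DNA methylation was not analysed here.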

Additional observations from a re-analysis of the deposited data

Results flagged for a closer look

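The responses of 7 named relatives differed between the ages by edgeR's test of the difference (juvenile minus neonatal log2 fold change). They were lower in juveniles for Lef1 (-0.76 ± 0.16, adjusted p = 0.0115), Tcf7 (-0.67 ± 0.14, adjusted p = 0.0105) and Tspan32 (-0.62 ± 0.16, adjusted p = 0.0304). They were higher for Tcf7l2 (1.54 ± 0.35, adjusted p = 0.0166), Wls (1.72 ± 0.40, adjusted p = 0.0174), Tspan2 (1.48 ± 0.27, adjusted p = 0.00474) and Slc16a3 (1.88 ± 0.44, adjusted p = 0.0176).

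The differences of Lef1, Tcf7 and Tspan2 passed under all 19 alternatives that gave a value. That of Tcf7l2 was lost without juvenile E. coli library 1, neonatal E. coli library 1 or neonatal PBS library 3 (adjusted p of up to 0.0611). That of Wls was lost without juvenile E. coli library 1 or 2 or neonatal PBS library 3 (up to 0.0579), and that of Slc16a3 without juvenile E. coli library 1, neonatal E. coli library 1 or neonatal PBS library 2 (up to 0.0624). Tspan32 lost its call without 8 of the 12 libraries, all but library 2 of juvenile PBS, of neonatal E. coli and of neonatal PBS and juvenile E. coli library 3 (up to 0.104). Their causes were not tested.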

How the results depend on the processing

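The juvenile responses and the differences of responses of the 7 genes stayed below 0 in all 287 values computed (0 above 0). The 7 were chosen for these directions in the same counts, so that is a description and no measure of stability. Under alternatives 0 of 693 fold changes and 0 of 28 group means moved by more than the spread between libraries. Leaving out 1 of 3 libraries could hardly pass that limit, because it shifts a group mean by less than the group's SD. The group means changed almost only by scaling factors of 0.967 to 1.025. For left-out libraries and group means these zeros are therefore no measure of stability. Of 1169 tests of relatives and neighbours under alternatives, 147 changed sides of the threshold and none changed direction while called. Counts of calls moved more; the cause was not tested. With limma and its sample weights, 1949 genes were called lower in juveniles (1042 by edgeR). In neonates 97 were called lower and 215 higher (16 and 116). In the difference 924 were called lower and 1376 higher (215 and 559), and 20 relatives were called lower in juveniles (12). With DESeq2, 50 were lower and 188 higher in neonates. With only the groups compared, 608 genes and 5 relatives were lower in juveniles, and 90 were lower and 230 higher in neonates. Leaving out 1 library gave 513 (juvenile E. coli library 2; 628 without library 1) to 1290 (juvenile PBS library 2) lower in juveniles, 5 to 13 relatives lower and 10 to 20 higher, 1 (neonatal E. coli library 2) to 58 (juvenile PBS library 2) lower and 52 (neonatal PBS library 2) to 180 (juvenile PBS library 2) higher in neonates, and 70 (juvenile E. coli library 2) to 547 (juvenile PBS library 2) lower and 266 (juvenile E. coli library 1) to 1006 (juvenile PBS library 2) higher in the difference. Lower calls in neonates, and calls of either direction in the difference, each moved by over 1.5 times when any of 8 of the 12 libraries was left out.

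The labels' replicate numbers gave no sign of pairing, although correlations over groups of 3 libraries cannot exclude it. Deviations of same-numbered libraries correlated at -0.151 to 0.182 in juveniles and -0.0914 to 0.223 in neonates. Of 12 libraries, 4 correlated best with their own number. With the number as a replicate block, 9 genes were called lower in neonates in place of 16. No other count of calls over all tested genes moved by over 1.5 times. Counts within lists did: relatives called higher in neonates went from 3 to 1, and neutrophil genes from 4 to 2. The neonatal calls of Fzd5 and Plcg2 were lost. Both the 3 libraries of a group and depth limit precision: all 7 genes were above the floor in every library, but Nkd2 had 27 to 37 counts in juvenile E. coli libraries.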
